A study of Mus musculus with 8 samples.

Results

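The nonTreg CD4 T cells recovered from the ischemic mouse brain were set against the nonTreg CD4 T cells of the spleen. NonTreg cells are the CD4 T cells outside the regulatory T cell (Treg) population, which depends on the transcription factor Foxp3. Wild type mice gave the brain cells, 14 days after stroke, and untreated mice with an intact spleen gave the spleen cells. RNA of each group was hybridised to 1 one-colour Agilent mouse array labelled with Cy3. The study had 8 such arrays, of which 4 held T cells (brain and spleen nonTreg, brain and spleen Treg) and the others held whole brain tissue. How the Treg and nonTreg cells were separated, how many mice gave cells, and the strain, sex and age of the mice are not given in the sources used here. Tissue and stroke changed together, as did any difference in how cells were isolated from the organs, so these cannot be told apart.

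Probes entered when at least 1 of the 2 nonTreg arrays read them well above background, the call of the scanner software, which left 30465 of 56605 probes. For genes, 13578 of 22911 had their representative probe among these, and 13404 could be compared. Levels are given as scaled signal, the processed spot brightness scaled so that the 75th percentile of each T cell array is 1000. The lowest scaled signal well above background was 10.1 in brain nonTreg and 13.7 in spleen nonTreg. A signal that was not well above background is called dim below. A probe dim on 1 array gives a minimum difference, taken against that limit or against the probe's own signal where higher, and written as "at least". Such a probe can come out only on the side of the array that read it well above background. Counts and medians of gene lists include these minimum differences, also called bounds. Each group has a single array, so there is no error between replicates and no test, and every difference describes these libraries only. In bulk RNA, fewer cells of a type and less RNA per cell cannot be told apart.

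CD4 T cells that have not met antigen circulate between blood, spleen and lymph nodes, and carry homing receptors such as Ccr7 together with the transcription factors Lef1, Tcf7 and Bach2. After activation they lower this programme, divide, and become helper cells that secrete interferon gamma (Th1), interleukins 4, 5 and 13 (Th2) or interleukin 17 (Th17). T cells that settle in a tissue carry the retention molecules Cd69 and Itgae and the chemokine receptor Cxcr6.

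The identity of the libraries was examined first. Cd3e, a chain of the T cell receptor complex, was at 30577 in brain and 37244 in spleen, and the coreceptor gene Cd4 at 10951 in brain and 8125 in spleen. Of 17 genes of T cell receptor signalling, 0 passed 2-fold upward in brain and 1 downward, against 17.8% and 12.1% of all 13404 genes compared. The lower one was Cd27, a costimulatory receptor that is lost on long-activated T cells, at 320.0 in brain and 680.1 in spleen. The median log2 difference of the list, brain minus spleen, was -0.02, beside 0.014 for all genes compared. Both libraries therefore carried T cell transcripts at like signal. Other Cd247 probes gave 0.53 and -1.59 where the probe used gave 0.82. Xist was not well above background in either library and the Y-linked genes Ddx3y, Kdm5d, Uty and Eif2s3y were in both.

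Foxp3 checked the labels. Its scaled signal was 803 in brain nonTreg and a dim 13.5 in its spleen counterpart, beside 4249 in brain Treg and 8605 in spleen Treg. The library labelled brain nonTreg thus held Foxp3 transcript at a level between those of spleen nonTreg and brain Treg, and the difference from spleen nonTreg was at least 58.8-fold. Markers of other cells were also measured in brain nonTreg, and their values stand beside the gene groups below.

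In all, 2389 genes passed 2-fold upward in brain nonTreg (17.8%) and 1618 downward (12.1%). These shares are the base for the nonTreg list counts below. Among genes measured on both arrays these counts were nearer, 1447 upward and 1334 downward. Larger differences lay mostly on the higher side, with 456 genes past 10-fold upward and 38 downward. Scaling to the spike-in control probes in place of the 75th percentile moved the median of all genes by 0.27 and gave 3144 higher and 1001 lower genes, which put 75.9% of the 2-fold genes on the higher side where the percentile put 59.6%. Probes without a gene symbol behaved otherwise, with 1146 higher and 2962 lower of 10178 compared, where all 29998 probes compared gave 15.7% higher and 18% lower. Further probes of the same gene give a second reading: of 414 such probes of higher genes 66.9% were also at least 2-fold higher, and of 635 of lower genes 40% were at least 2-fold lower. The lower side was thus repeated less often by other probes of a gene than the higher side, in counts that were not tested. The median SD between spots of 1 probe was 0.043 (log2) on both arrays, and the median gap between probes of 1 gene was 0.53.

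**Figure D1:**
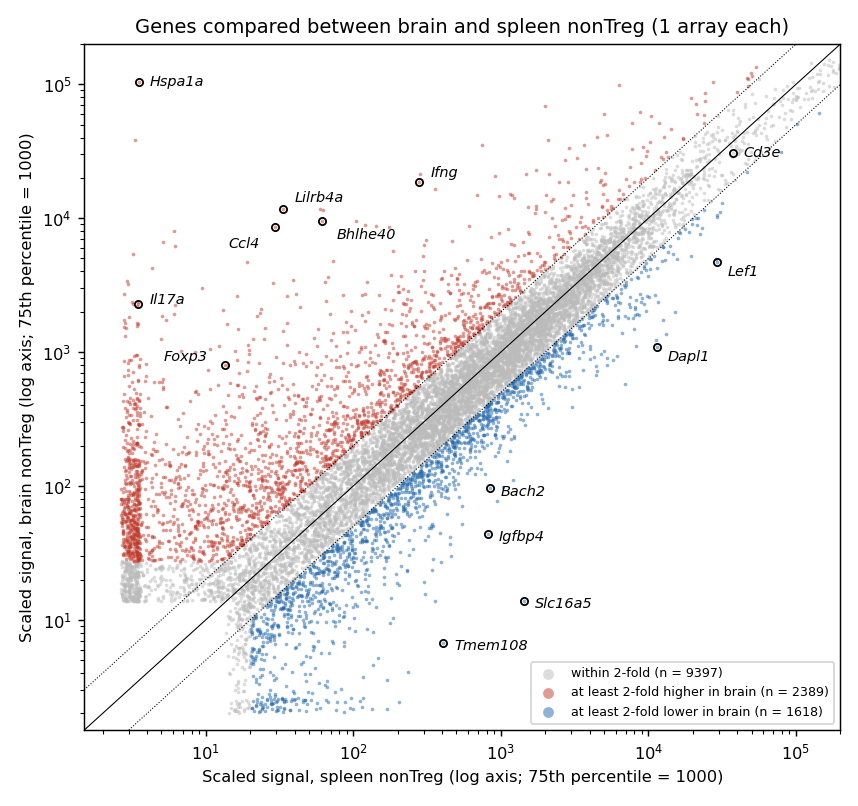
Scaled signal of each gene compared in spleen nonTreg (horizontal, log axis) and in brain nonTreg (vertical, log axis), with 1 point per gene and dotted lines at 2-fold. Points at the left edge, such as Hspa1a and Il17a, were not well above background in spleen, and the genes at least 2-fold higher (2389) reach farther from the diagonal than the genes at least 2-fold lower (1618).

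The genes with the highest measured differences were of several kinds. Lilrb4a, an inhibitory receptor of myeloid cells that activated T cells can also carry, was at 11736 in brain and 33.5 in spleen, 350.0-fold higher. Ccl4, a chemokine made by activated T cells and myeloid cells, was at 8632 in brain and 29.6 in spleen. Ccl1, the ligand of Ccr8, was at 2620.0 in brain and 16.2 in spleen. Bhlhe40, a transcription factor needed for cytokine production by helper T cells, was at 9498 in brain and 61.2 in spleen, 155-fold higher. The interferon-inducible membrane proteins Ifitm3 (87.6-fold) and Ifitm7 (90.3-fold), the MHC class II genes H2-Ab1 and H2-Eb1, their chaperone Cd74, the chemokine Cxcl10, the B cell surface gene Ly6d and the nuclear receptor Nr4a2 made up the rest of the 12 highest. Among genes not well above background in spleen, the largest bounds belonged to the heat shock genes Hspa1a and Hspa1b, then to Tyrobp (at least 589-fold), a signalling adaptor of myeloid and NK cells, Sparc (at least 489-fold), a matrix protein of vessels and glia, Mpeg1 (at least 456-fold) of macrophages, the protease gene Ctsh (at least 394-fold), Atf3 and Mt1. Another Mpeg1 probe gave at least 3.46 (log2) in place of 8.83, and others of Ctsh at least 3.71 and 5.34 in place of 8.62.

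The 12 lowest measured genes were, by definition, well above background in both libraries. Fam240a (10.4), Slc16a5, Art4, Stac3 (14.5) and Tmie lay near the limit of 10.1 in brain, so their differences rest on weak brain signals. Slc16a5, a monocarboxylate transporter, was at 13.8 in brain and 1433 in spleen, 104-fold lower, although other probes gave differences of -3.15 and, as a bound, -1.71. Art4, an ADP-ribosyltransferase family gene, was at 13.9 in brain and 358 in spleen. Tmie, a gene of hair cell hearing, was at 15.5 in brain and 305 in spleen. Igfbp4, an insulin-like growth factor binding protein of naive CD4 T cells, was at 44.0 in brain and 815 in spleen, and another probe gave -3.18. Tet1, which oxidises methylcytosine, was at 23.6 in brain and 343 in spleen, with another probe at -2.56. The remaining genes of the 12 lowest were Fam240a, Sorcs2, Kcnh3, Stac3, Cnga1, Bcl9 and Gprc5b, between 17.8-fold and 12.1-fold lower. Another Sorcs2 probe gave a bound of -0.73 in place of -3.93, and another Gprc5b probe a bound of -3.13 in place of -3.59. Tmem108 was at least 40.4-fold lower, Fam205a2 at least 23.3-fold, the serotonin receptor gene Htr1b at least 20.2-fold and Naif1 at least 17.7-fold lower, each not well above background in brain nonTreg.

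Genes of naive and recirculating T cells were lower in brain nonTreg as a group, with 13 of 18 at least 2-fold lower, 1 higher and a median of -1.94. All of them were measured on both arrays. Lef1, a transcription factor of naive T cells, was at 4722 in brain and 29205 in spleen, 6.18-fold lower. Bach2, a repressor of effector genes, was at 95.7 in brain and 841 in spleen, and Dapl1, a transcript of resting T cells, was at 1091 in brain and 11418 in spleen. These 3 genes had signal well above background in both libraries and lay lower in brain. Art2b, an ADP-ribosyltransferase on the T cell surface, was at 41.6 in brain and 453 in spleen. Ccr7, the receptor that guides T cells into lymph nodes, was at 8406 in brain and 23094 in spleen, and a further probe gave -0.84.

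Other members of the same list did not follow. Klf2, the transcription factor that maintains S1pr1, was at 22957 in brain and 16844 in spleen, and its target S1pr1, the receptor for exit from lymphoid tissue, was at 4768 in brain and 6686 in spleen. Il7r, the survival receptor of naive and memory T cells, was at 19112 in brain and 19368 in spleen. The 3 genes thus lay within 2-fold in the library whose Lef1 and Bach2 signals were much lower. The 1 gene higher was Ccr9, the gut-homing receptor, at 1579 in brain and 182 in spleen, 8.70-fold higher, while between the Treg libraries it was at 478 in brain and 319 in spleen.

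All 11 residency genes with a named probe were at least 2-fold higher, with a median of 4.20. Cd69, which opposes S1pr1 at the cell surface, was at 8730.3 in brain and 606 in spleen. Cxcr6 was at 15264 in brain and 1150.2 in spleen. Itgae, the integrin chain that binds E-cadherin, was at 394 in brain and a dim 13.1 in spleen, at least 28.9-fold higher. These 3 defining genes all had signal in brain, and Cd69 and Cxcr6 were also well above background in spleen. Rgs1, which dampens chemokine receptor signals, was at 8908 in brain and 119.7 in spleen, and the chemokine Xcl1 at 1939 in brain and 70.0 in spleen. Crem, a cyclic AMP response factor, was at 1642 in brain and 35.6 in spleen, while other Crem probes gave 4.88, 0.67 and at least 0.081 in place of 5.53. Some of these genes also respond to acute activation, which is described with the immediate early genes.

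**Figure D2:**
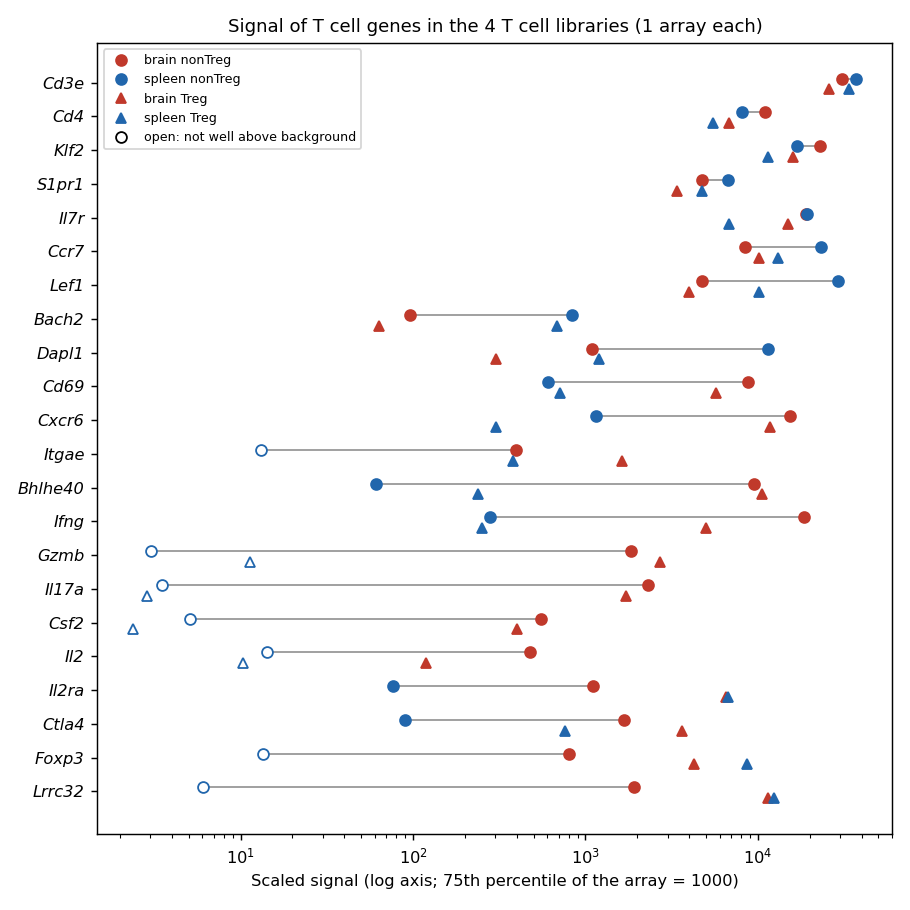
Scaled signal (log axis) of T cell genes in brain nonTreg and spleen nonTreg (circles, joined by a line) and in brain Treg and spleen Treg (triangles), 1 array each, with open symbols where the probe was not well above background. Cd3e, Cd4, Klf2, S1pr1 and Il7r lie close together in the nonTreg pair, Lef1, Bach2 and Dapl1 lie lower in brain, and Foxp3 is higher in brain in the nonTreg pair and 2.03-fold lower in brain in the Treg pair.

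Activation and costimulatory genes were higher, 11 of 12 by at least 2-fold, with a median of 2.43. Cd44, the adhesion receptor of antigen-experienced T cells, was at 2428 in brain and 523 in spleen. Icos, a costimulatory receptor, was at 27972 in brain and 3292 in spleen, and Tnfrsf4, which encodes OX40, at 33583 in brain and 2880.3 in spleen. Il2ra, the high-affinity chain of the IL-2 receptor, was at 1105 in brain and 76.3 in spleen. The exception was Tnfsf8, at 1899.7 in brain and 1289 in spleen. Among inhibitory receptors 5 of 11 were higher and 0 lower: Ctla4 (4.22), Havcr2 (at least 3.16), Tigit (3.08), Pdcd1, which encodes PD-1 (1.88), and Lag3 (1.69), all as log2 differences. Btla, another inhibitory receptor, was at 1216 in brain and 2007 in spleen.

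Th1 and cytotoxic genes had 12 of 16 members higher and a median of 3.25. Ifng, which encodes interferon gamma, was at 18636 in brain and 279.7 in spleen, 66.6-fold higher. Tbx21, which encodes the Th1 factor T-bet, was at 3532 in brain and 393 in spleen. Gzmb, a granule protease, was at 1831 in brain and a dim 3.04 in spleen, and Gzma, another, at 2664 in brain and 115 in spleen. The cytokine and the factor were well above background in spleen nonTreg too, whereas Gzmb was not. Members that did not reach 2-fold included Eomes, a relative of T-bet, at 236 in brain and 187 in spleen, and Prf1, the pore protein perforin, at 214 in brain and 372 in spleen. The granule proteases were thus higher while Prf1 lay within 2-fold. Markers of NK cells and CD8 T cells, which share the cytotoxic genes, stood beside this list: 10 of 12 NK cell genes were at least 2-fold higher (median 2.47) and Cd8a was at 291 in brain and a dim 3.07 in spleen. Of the 12 NK cell genes, 8 were bounds, which could come out only on the higher side. The summed scaled signal of the NK cell list was 14909.7 in brain and 1133 in spleen, most of it in brain from Tyrobp (8046) and Fcer1g (3639.8), which myeloid cells share. Ncr1, a defining NK receptor, was at 30.0 in brain and a dim 3.20 in spleen, and Klrb1c at 174 in brain and 162 in spleen. The part of these cells in the cytotoxic differences was not tested.

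Th17 genes were higher in 9 of 11 cases (median 2.21), and Th2 genes in 5 of 6 (median 2.28). Bounds made up 4 of the 11 Th17 and 3 of the 6 Th2 genes compared. Il17a was at 2302 in brain and a dim 3.49 in spleen, at least 169-fold higher. Il17f (at least 10.6-fold) and Il22 (at least 15.2-fold), cytokines of the same cells, were not well above background in spleen either. Ahr, a ligand-dependent factor for Il22, was at 989 in brain and 90.8 in spleen. These 3 cytokines thus had signal in brain alone, where Ahr had it in both libraries. Il4 was at 972 in brain and 198 in spleen, Il5 at 66.0 in brain and a dim 3.06 in spleen and Il13 at 20.2 in brain and a dim 7.31 in spleen. Gata3, the Th2 factor, was at 12833 in brain and 3877 in spleen. The IL-33 receptor gene Il1rl1, at 2222 in brain and a dim 3.44 in spleen, is shared with the tissue Treg list, and other probes gave at least 4.05 and 3.98 (log2) in place of 7.35.

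Follicular helper T cells, which help B cells in germinal centres, gave a mixed list with 2 genes higher and 2 lower of 8 (median -0.14). Over all genes compared the shares were 17.8% and 12.1%. The homing receptor Cxcr5 was at 641 in brain and 1995 in spleen and the factor Ascl2 at 45.5 in brain and 161 in spleen. The higher genes were Icos and Pdcd1, which other activated T cells also carry. Il21, their characteristic cytokine, was at 154 in brain and 210.4 in spleen.

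Across T cell cytokines, 14 of 22 were higher and 1 lower, with 11 of the 22 as bounds. Csf2, which encodes GM-CSF and acts on myeloid cells, was at 553 in brain and a dim 5.11 in spleen. Il2, the growth factor of T cells, was at 480.3 in brain and a dim 14.2 in spleen, and Tnf at 2859.9 in brain and 438 in spleen. Another Il2 probe gave at least 2.71 (log2) in place of 5.08. Il10, an inhibitory cytokine, was at 498 in brain and a dim 3.37 in spleen. The lower gene was Il16, a ligand of CD4, at 1115 in brain and 4024 in spleen. Lymphotoxin genes lay within 2-fold, with Lta at 853 in brain and 758 in spleen and Ltb at 29199.7 in brain and 53556 in spleen.

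Cytokine receptors were mixed, with 11 of 24 higher, 1 lower and a median of 0.37. Il2rb, the signalling chain for IL-2 and IL-15, was at 11621 in brain and 1740.3 in spleen, and Il10ra at 1577 in brain and 257 in spleen. Il1r2, a decoy receptor for IL-1, was at 588 in brain and a dim 14.6 in spleen. The interferon gamma receptor chain Ifngr1 was at 14935 in brain and 3059 in spleen. Il6ra, the receptor chain for IL-6, was the lower gene, at 5201 in brain and 19405 in spleen. It is also a gene of naive T cells.

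Chemokine receptors of effector cells were higher, in 12 of 15 genes (median 3.36), and the 2 lower ones were Ccr7 and Cxcr5, both receptors for lymphoid tissue. Ccr8 was at 633 in brain and a dim 5.15 in spleen, and Ccr2, the monocyte receptor that T cells also use, at 231 in brain and a dim 3.90 in spleen. Cx3cr1, at 2612 in brain and 35.4 in spleen, is also a defining gene of microglia. Chemokine ligands were higher in 17 of 18 cases and lower in 0 (median 3.49), with 13 of the 18 as bounds. Ccl3 was at 708 in brain and a dim 3.24 in spleen, Cxcl10, a ligand of Cxcr3, at 3437 in brain and 38.7 in spleen, and Ccl12 at 302 in brain and a dim 2.96 in spleen. Ccl2 (at least 20.3-fold) and Ccl12 are made mainly by myeloid and stromal cells, and Ccl22 and Cxcl13 were not well above background in either library.

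Integrins and adhesion genes were higher in 7 of 19 cases and lower in 2 (median 0.73), beside 17.8% and 12.1% of all genes compared. Itga4, whose product pairs with Itgb1 as VLA-4, was at 5487 in brain and 5063 in spleen, and Itgb1 at 11189 in brain and 1993 in spleen. Itgal, a chain of LFA-1, was at 2308 in brain and 1238 in spleen. Itga6, a laminin receptor chain, was at 3721 in brain and 9890.0 in spleen, and was among the lower genes.

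Treg genes were higher in brain nonTreg than in spleen nonTreg, with 15 of 18 core genes at least 2-fold higher, 1 lower and a median of 3.70. Ikzf4 (0.30) and Izumo1r (-0.77) lay within 2-fold in log2 difference, and Itgb8 was not well above background in either nonTreg library. Lrrc32, which encodes the TGF-beta anchor GARP, was at 1915 in brain and a dim 6.05 in spleen, beside 11403 in brain Treg and 12379 in spleen Treg. Fgl2, a secreted inhibitor, was at 455 in brain and a dim 3.40 in spleen. Socs2, an inhibitor of cytokine signals, was at 500.5 in brain and 27.5 in spleen, and Entpd1, the ATP-degrading enzyme CD39, at 529 in brain and 31.1 in spleen. Brain nonTreg thus lay above spleen nonTreg and below both Treg libraries in Foxp3 and Lrrc32. Gpr83, a receptor of Treg in lymphoid tissue, was the lower gene, at 123 in brain and 779 in spleen. Tissue Treg genes were higher in 9 of 10 cases (median 5.10), with 6 of the 10 as bounds. Areg, which encodes amphiregulin, was at 440.0 in brain and a dim 3.55 in spleen, Klrg1 at 1011 in brain and a dim 6.79 in spleen and Pparg at 597 in brain and a dim 5.06 in spleen. Activated T cells without Foxp3 also carry Il2ra, Ctla4 and Tnfrsf4. Whether the Foxp3 transcript came from Treg in this library or from other T cells was not tested.

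Transcription factors of effector and memory T cells were higher in 13 of 22 cases and lower in 1 (median 1.56). Irf4, which scales with receptor signal strength, was at 3123 in brain and 200.4 in spleen, and Irf8, also a factor of myeloid and B cells, at 3735 in brain and 179 in spleen. Rora, shared by Th17 and tissue T cells, was at 14199 in brain and 1222 in spleen. Myb, a factor of stem-like T cells, was the lower gene, at 296 in brain and 881 in spleen.

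**Figure D3:**
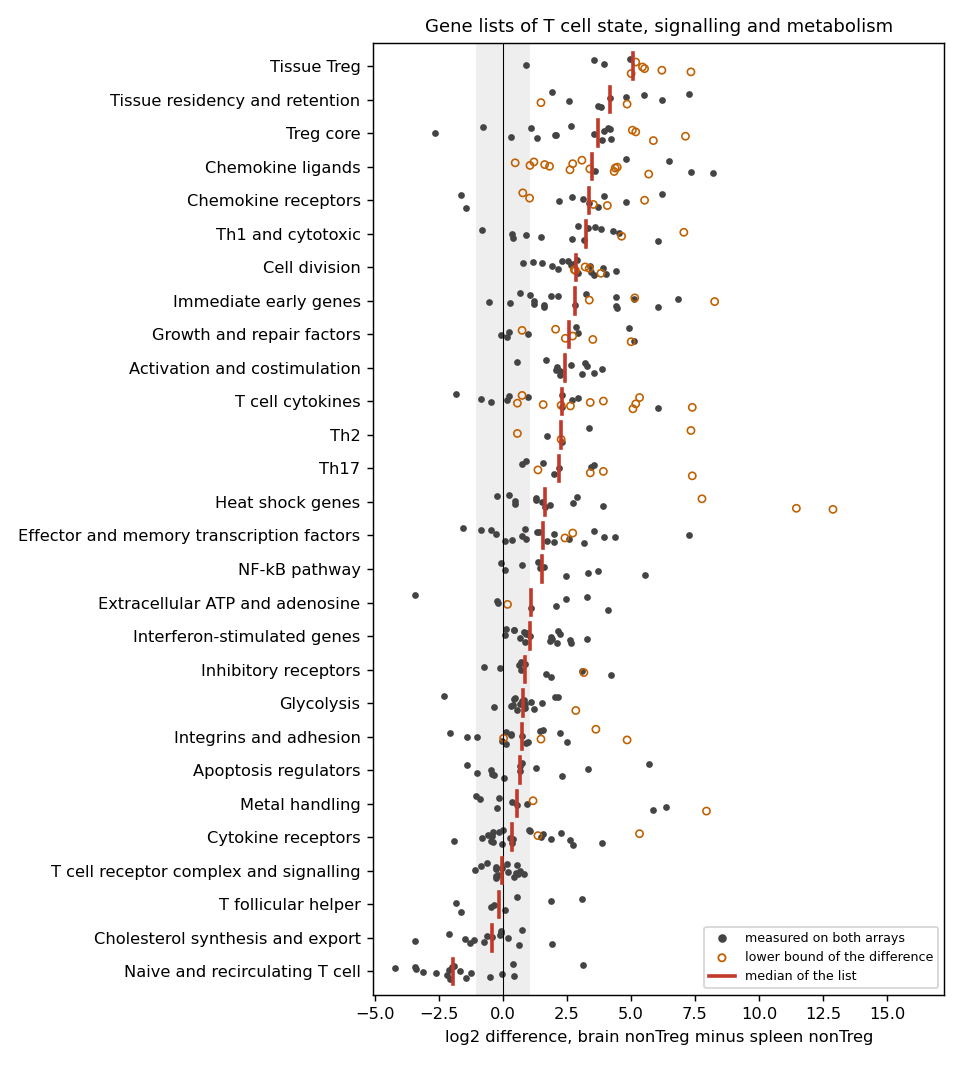
Log2 differences, brain nonTreg minus spleen nonTreg, of each gene in 28 lists, with filled points for genes measured on both arrays, open points for bounds and a red bar at the list median; the grey band marks differences under 2-fold. Tissue Treg and residency genes have the highest medians (5.10 and 4.20), the T cell receptor list centres on -0.02, and the naive list has the lowest median (-1.94). Bounds make up 6 of 10 tissue Treg and 2 of 11 residency genes compared.

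Immediate early genes, which respond within minutes to receptor signals or stress, were higher in 18 of 21 cases, with 0 lower and a median of 2.81. Fos was at 6879 in brain and 312 in spleen, and Nr4a1, a nuclear receptor induced by T cell receptor signals, at 68389 in brain and 1979 in spleen, 34.5-fold higher. Atf3, a stress-induced factor, was at 4219 in brain and a dim 4.33 in spleen, at least 309-fold higher. Fosb was at 2701 in brain and 40.7 in spleen, although another probe gave at least 0.65 in place of 6.05. These genes span receptor and stress responses. Egr2 (0.29), Egr3 (-0.55) and Myc (0.66), also targets of receptor signals, lay within 2-fold, although other probes gave 1.49 for Myc and bounds of -0.54 and -1.03 for Egr3.

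Heat shock genes encode chaperones that rise when proteins unfold, and 11 of 15 were higher, 0 lower (median 1.66). Hspa1a was at 103861 in brain and a dim 3.51 in spleen, and its near-identical neighbour Hspa1b at 38569 in brain and a dim 3.33 in spleen, so probes may read both. Hspb1, a small heat shock protein, was at 2995 in brain and a dim 9.35 in spleen, at least 219-fold higher. These 3 genes had the widest gap of the list, from under background in spleen to high signal in brain. Hsph1, a partner of Hsp70, was at 14681 in brain and 977 in spleen, Bag3 at 3207 in brain and 435 in spleen and Dnajb1 at 51816 in brain and 7679 in spleen. Hsp90ab1 differed less, at 56426 in brain and 40711 in spleen. So did Hsf1, the factor that binds heat shock elements, at 1600.0 in brain and 1853 in spleen. Hspa8 (1.66), Hspd1 (1.28) and Hspa5 (1.30) passed 2-fold upward in log2 difference, and other Hspa8 probes gave 2.57, 2.77 and 1.94. Other Hsph1 probes gave 3.97 and at least 1.45 in place of 3.91.

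The promoters of the 3 genes with the widest gap are shown because each holds the heat shock element before its start. They are 100-base stretches from the RefSeq promoter table (GRCm38.p6), read 5′ to 3′ on the strand of the gene, with the element in capitals. The Hspa1a stretch is chr17:34972228-34972327 (minus strand), the Hspa1b stretch chr17:34959310-34959409 (minus strand) and the Hspb1 stretch chr5:135887755-135887854 (plus strand).
Hspa1a: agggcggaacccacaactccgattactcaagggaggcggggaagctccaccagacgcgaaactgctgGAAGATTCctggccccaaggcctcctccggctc
Hspa1b: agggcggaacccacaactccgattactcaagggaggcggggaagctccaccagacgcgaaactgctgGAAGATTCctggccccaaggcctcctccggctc
Hspb1: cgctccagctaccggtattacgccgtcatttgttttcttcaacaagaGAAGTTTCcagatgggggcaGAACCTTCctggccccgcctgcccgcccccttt
The Hspa1a and Hspa1b stretches are identical at 100 of 100 bases, and Hspb1 holds the element at 2 places. The motif searched was GAANNTTC on both strands, from 250 bases before to 50 bases after the start. It was found in the promoters of 9 of the 11 heat shock genes in the table, beside 9.04% of all 27025 genes and 7.86% of all 32851 promoters. Of these 9, 7 were at least 2-fold higher, and both list members in the table that were not, Hspe1 and Chordc1, hold it too. The cyclic AMP response element TGACGTCA was found for 3 of 17 immediate early genes (Dusp1, Btg2 and Ppp1r15a), beside 2.03% of all genes and 1.79% of all promoters. A match describes letters in this window and shows no binding.

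Genes of the NF-kB pathway, which links receptor signals to cytokine genes, were higher in 7 of 10 cases (median 1.52). Tnfaip3, the inhibitory enzyme A20, was at 34966 in brain and 749 in spleen, 46.7-fold higher, and Nfkbia, the inhibitor IkB-alpha, at 57859.8 in brain and 10448 in spleen. Nfkbiz (3.72) and Nfkbid (3.33), of the IkB family like Nfkbia, lay between them in log2 difference, and another Nfkbiz probe gave 1.89. The subunit genes Nfkb1 (0.072) and Relb (0.75) were within 2-fold, although another Relb probe gave 1.26. Of 13 apoptosis regulators 4 were higher and 1 lower, beside 17.8% and 12.1% of all genes compared. Pmaip1, the death-promoting gene Noxa, was at 3364 in brain and 64.7 in spleen, and Bcl2l1, which encodes the protective Bcl-xL, at 2780.3 in brain and 558 in spleen. Cflar, an inhibitor of caspase-8, was at 807 in brain and 2109 in spleen, while other probes gave -0.97, 0.42 and -0.03 in place of -1.39.

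Cell division genes were higher in 21 of 22 cases (median 2.86). Mki67, carried by dividing cells, was at 3479 in brain and 294 in spleen, and Top2a, a topoisomerase of the S and G2 phases, at 1565 in brain and 97.0 in spleen. Ccna2, a cyclin, was at 853 in brain and 39.9 in spleen, and Cdk1, the mitotic kinase, at 194 in brain and a dim 7.17 in spleen. Division genes thus had signal in spleen nonTreg too, apart from Cdk1, Bub1, Bub1b, Aurkb and Kif11. Mcm2, a helicase loaded before replication, was the member within 2-fold, at 549 in brain and 322 in spleen.

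Interferon-stimulated genes were higher in 10 of 19 cases with 0 lower, and the median of 1.07 fell to 0.89 with normexp background correction. Rsad2, the antiviral enzyme viperin, was at 1092 in brain and 113 in spleen, Ifit3 at 3209.6 in brain and 506 in spleen and Isg20 at 13325 in brain and 2168 in spleen.

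Metabolic genes differed by pathway. In glycolysis 6 of 18 genes were higher and 1 lower (median 0.77). Hk2, the inducible hexokinase, was at 98.3 in brain and a dim 12.1 in spleen, Hif1a, the hypoxia factor that induces glycolytic genes, at 4832 in brain and 1092 in spleen, and the lactate exporter Slc16a3 at 609.5 in brain and 149.8 in spleen. Pdk1, which keeps pyruvate out of mitochondria, was the lower gene, at 1024 in brain and 4979 in spleen. In cholesterol metabolism 1 of 15 was higher and 5 lower (median -0.44). The lower ones included the synthesis enzyme genes Hmgcs1, at 790.3 in brain and 1923 in spleen, Fdps, at 625 in brain and 1759 in spleen, and Idi1, at 212 in brain and 469 in spleen, whereas Abca1, a cholesterol exporter also of macrophages, was at 294 in brain and 77.2 in spleen. Fdft1, another synthesis enzyme gene, was within 2-fold, at 964 in brain and 845 in spleen.

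Metal handling genes are given first, then purinergic and growth factor genes. Mt1, a metallothionein that binds zinc, was at 3381 in brain and a dim 2.92 in spleen, and Mt2 at 1134 in brain and 19.3 in spleen, while Slc30a1, a zinc exporter, was the lower gene of the 11, at 53.9 in brain and 113 in spleen. Another Mt1 probe gave at least 2.95 in place of 7.95. Among 9 genes for extracellular ATP and adenosine, 5 were higher, including Entpd1 and the adenosine receptor Adora2a, at 1438 in brain and 345 in spleen, and 1 was lower, Art2b (-3.45). Growth and repair factors were higher in 9 of 14 cases (median 2.58), with 6 of the 14 as bounds. Pdgfb, a factor for pericytes, was at 569.7 in brain and 16.5 in spleen, and Spp1, which encodes osteopontin, at 547 in brain and 18.2 in spleen. Bdnf and Hgf were not well above background in either library.

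MHC class II genes present peptides to CD4 T cells and belong to dendritic cells, B cells, macrophages and activated microglia, not to resting mouse T cells. The list of class II presentation also holds Ciita, Cd80, Cd86 and Ctss. Of its 12 genes 10 were higher and 0 lower (median 3.27). H2-Aa was at 1534 in brain and a dim 2.80 in spleen, H2-Ab1 at 11689.7 in brain and 59.0 in spleen and H2-Eb1 at 11593 in brain and 62.6 in spleen. Ciita, the activator of class II genes, was at 357 in brain and a dim 13.8 in spleen, and Cd74, the invariant chain, at 9531 in brain and 103 in spleen. Most members had low signal in spleen nonTreg. H2-Ob, an inhibitor of peptide loading found in B cells, was at 248 in brain and 448 in spleen. Cd80 was at 36.1 in brain and 53.1 in spleen by its representative probe, but other probes gave at least 2.35 and 2.30.

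Promoter stretches of 3 class II genes are shown for the Y box, the element ATTGG that class II promoters share. They are 100-base stretches from the same table, on the strand of the gene, with the Y box in capitals (CCAAT where it lies on the other strand): chr17:34287842-34287941 (minus strand) for H2-Aa, chr17:34305762-34305861 (plus strand) for H2-Eb1 and chr17:34153060-34153159 (plus strand) for H2-DMb1.
H2-Aa: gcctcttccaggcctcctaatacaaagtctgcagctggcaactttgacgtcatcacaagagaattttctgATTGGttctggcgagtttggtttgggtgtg
H2-Eb1: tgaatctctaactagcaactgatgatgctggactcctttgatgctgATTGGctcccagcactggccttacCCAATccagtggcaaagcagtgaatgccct
H2-DMb1: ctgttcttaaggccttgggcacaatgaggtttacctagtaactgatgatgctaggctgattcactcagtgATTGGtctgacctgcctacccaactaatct
On both strands the Y box was found for 6 of the 8 members of the class II presentation list in the table. It was found for 41.1% of all 27025 genes and in 37.4% of all promoters, so the letters are common. The class II gene with the motif that was not higher was H2-Ob.

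Marker lists of antigen-presenting and myeloid cells stood beside these genes. Of 12 microglia genes 12 were well above background in brain nonTreg and 5 in spleen nonTreg. Of all 22911 genes, 11503 were so in both libraries, 1668 in brain nonTreg alone and 407 in spleen nonTreg alone. Of the 11 microglia genes compared, 9 were at least 2-fold higher and 6 were bounds. Tmem119, a defining gene, was at 530.3 in brain and a dim 10.6 in spleen, P2ry12 at 129 in brain and a dim 3.42 in spleen, and Trem2 at 2368 in brain and a dim 3.15 in spleen. The summed scaled signal was 32009 in brain and 27887 in spleen, and 26326 of the spleen sum was the 1 gene Siglech, of which another probe gave at least 4.86 in place of -0.97. Csf1r, the receptor for macrophage growth factors, was at 8523 in brain and 175 in spleen, while another probe gave 0.96 in place of 5.60.

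Macrophage and monocyte genes were higher in 11 of 11 cases (median 3.83), 9 of them as bounds. Their summed signals were 63453 and 21578, most of it from Ly6c2, at 59946 in brain and 21388 in spleen, which T cells also carry. Adgre1, which encodes F4/80, was at 311 in brain and a dim 3.40 in spleen, and Cd14 at 664 in brain and a dim 3.95 in spleen. The defining border macrophage genes Cd163 and Lyve1 were not well above background in either library. Genes of disease-associated phagocytes were higher in 10 of 10 cases, with summed signals of 34982 and 2021, led by Apoe, the lipid carrier of glia and macrophages, at 21383 in brain and 284 in spleen, and the galectin gene Lgals3, at 4808 in brain and 72.7 in spleen. Of 9 dendritic cell genes none was well above background in spleen nonTreg and 7 were in brain nonTreg, among them Itgax, at 529 in brain and a dim 5.10 in spleen, and Flt3, at 368 in brain and a dim 2.90 in spleen, with summed signals of 2049 and 36.6.

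B cell genes were higher in 8 of 12 cases and lower in 1 (median 3.35), with 8 of the 12 as bounds. Their summed signals were 8071 and 288. Ms4a1, which encodes CD20, was at 147 in brain and a dim 3.01 in spleen. The factor Pax5 and the kinase Blk, which define B cells, were not well above background in either library, while Ly6d, at 4699 in brain and 19.1 in spleen, and Blnk, at 1636 in brain and a dim 2.85 in spleen, had high signal in brain. The plasma cell gene Jchain was at 1311 in brain and a dim 2.84 in spleen.

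Vascular genes were measured too. Endothelial genes were higher in 11 of 12 cases (median 2.36), with summed signals of 63384 and 24008, mostly from Ly6c1, at 59216 in brain and 23764 in spleen, which T cells also carry. Cldn5, a tight junction protein of brain vessels, was at 1727 in brain and a dim 2.80 in spleen. Pericyte genes were higher in 6 of 8 and fibroblast genes in 4 of 6 cases, among them Ptgds, at 815 in brain and a dim 3.94 in spleen. Bounds made up 9 of 12 endothelial, 5 of 8 pericyte and 6 of 6 fibroblast genes compared.

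Of the neural lists, 8 of 10 oligodendrocyte, 4 of 9 astrocyte and 5 of 12 neuron genes were well above background in brain nonTreg. In spleen nonTreg these counts were 5, 2 and 3. Of all 22911 genes, 11503 were well above background in both libraries, 1668 in brain nonTreg alone and 407 in spleen nonTreg alone. The astrocyte genes Gfap, Aqp4, Slc1a2, Gja1 and Mlc1 were not well above background in either library, nor were the neuron genes Syt1, Rbfox3, Slc17a7, Gad1, Gad2, Nefl and Nefm or the oligodendrocyte genes Mobp and Opalin. Of all 13404 genes compared, 17.8% were higher and 12.1% lower, and the small list counts that follow were not tested against these shares. Of 8 oligodendrocyte genes compared 2 were higher and 2 lower, and Mbp, which T cells also transcribe, was at 6630.0 in brain and 5881 in spleen. Of 4 choroid plexus genes compared 2 were higher, Ttr (at least 3.36) and Enpp2 (at least 3.89), and 2 lower, Kcnj13 (-1.46) and Sostdc1 (-1.86), while 4 were not well above background in either library. Of 5 neuron genes compared 1 was higher, Stmn2 (at least 3.39), and 1 lower, Snap25 (-1.09), and of 4 astrocyte genes 0 were higher and 1 lower, Aldh1l1 (-2.31). In blood cell lists, the neutrophil genes S100a8 (at least 2.66) and S100a9 (at least 4.79) were higher and Csf3r was lower, at 12991 in brain and 31337 in spleen. The median of the 6 neutrophil genes compared was 0.081. The summed scaled signal of the 10 with a probe was 13572 in brain and 31457 in spleen, most of it from Csf3r, and Cxcr2, Retnlg, Ltf and Ngp were not well above background in either library. The erythroid factor Gata1 was at 23.2 in brain and 230.0 in spleen, against hemoglobin genes higher in brain, such as Hba-a1, at 347 in brain and 51.0 in spleen. Of the short lists, 2 of 4 red pulp macrophage genes, 4 of 5 plasma cell genes, 2 of 2 CD8 T cell genes, 1 of 2 mast cell genes and 1 of 1 platelet genes compared were higher and 0 lower. In the same order, 3, 3, 1, 1 and 1 of these genes compared were bounds, which could come out only higher. Hmox1, the 1 red pulp gene measured on both arrays, gave -0.91, and the 1 such mast cell gene gave -0.065. Not well above background in either library were 5 of 7 mast cell and 5 of 6 platelet genes. The part of these cells in the differences of the other gene groups was not tested.

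**Figure D4:**
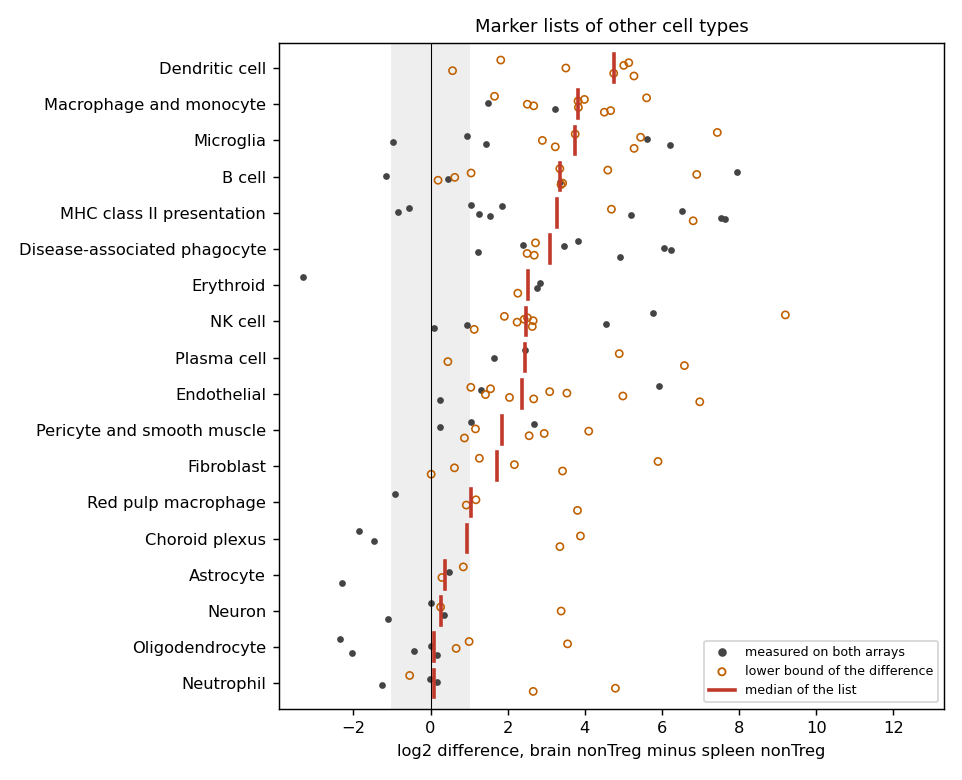
Log2 differences, brain nonTreg minus spleen nonTreg, of each gene in marker lists with at least 3 genes compared; filled points were measured on both arrays, open points are bounds, red bars are list medians and the grey band marks differences under 2-fold. Dendritic cell, macrophage, microglia and B cell lists have medians from 4.75 to 3.35, and the astrocyte, neuron, oligodendrocyte and neutrophil lists have medians within 2-fold. Bounds make up 7 of 7 dendritic cell, 9 of 11 macrophage, 6 of 11 microglia and 8 of 12 B cell genes compared. The medians of these lists thus rest mostly on minimum differences.

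The same genes in Treg, brain against spleen, were set beside these values, where 17.2% of 13779 genes compared were 2-fold higher and 11.7% lower. The Treg and nonTreg pairs share no array, and the difference between them was not tested. Of naive genes 11 of 18 were at least 2-fold lower between the Treg libraries (median -1.46) and 13 of 18 between the nonTreg libraries. Residency genes had medians of 3.01 in Treg and 4.20 in nonTreg, and Th1 and cytotoxic genes 2.53 and 3.25. Those lists pointed the same way in both pairs. The Treg core list had 8 genes higher and 4 lower of 19 between the Treg libraries, with a median of 0.082 in place of 3.70. Activation genes had 6 of 12 higher in Treg (median 1.05) and 11 of 12 in nonTreg. Il2ra, a member of both lists, was at 6712 in spleen Treg beside 76.3 in spleen nonTreg. The part of the spleen levels in these medians was not tested. Microglia genes had a median of 4.81 in the Treg pair and 3.75 in the nonTreg pair, and NK cell genes 0.87 and 2.47.

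**Figure D5:**
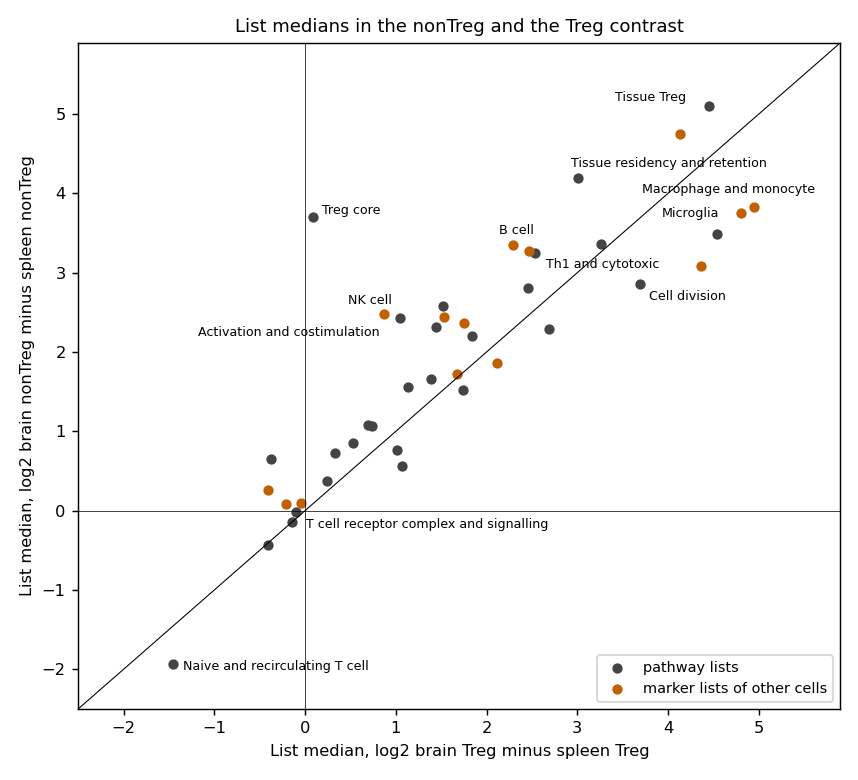
Median log2 difference of each gene list between the brain and spleen Treg libraries (horizontal) and between the brain and spleen nonTreg libraries (vertical), for lists with at least 5 genes compared in each; the diagonal marks equal medians. The Treg core list lies far above the diagonal (0.082 in Treg, 3.70 in nonTreg), the microglia and macrophage lists lie below it, and the naive list is low in both.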

How the data were processed

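The submitters' processing notes name Agilent Feature Extraction 10.7.1.1. Per the file headers, the deposited intensity is spot brightness after background subtraction and detrending, without normalization across arrays. A series table deposited by the authors gives signal on a linear scale, the processed intensity over a constant per array for 99.9% of probes (tolerance 0.1%; column medians 0.071 for brain and 0.068 for spleen nonTreg), and was an alternative.

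Spots of a probe were averaged, log2-transformed and scaled to the 75th percentile over 24604 probes well above background on all 4 T cell arrays. Control spots were left out, and spots flagged as outliers (109 in brain and 103 in spleen nonTreg) were left out only where the probe had other spots. No spot was saturated. Probes were named by RefSeq accession (GRCm38.p6, names only): 32994 of 56605 matched 1 symbol. Each gene was read from the probe with the highest 4-array mean; 174 genes had no bound. Counts use a 2-fold mark (Python 3.11.15, pandas 2.3.3, limma 3.58.1 for alternatives). The counting step was run on simulated data with noise between spots only, which cannot check error between probes or arrays.

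The comparison and the 49 gene lists (568 symbols, 9 without a probe) were chosen with earlier results of these data known. Named were the 12 highest and 12 lowest measured genes, the 8 largest bounds each way, and of each list the first 2 genes plus up to 6 with the largest differences, members behind small counts and members shared with another list. Members named beyond that, mostly ones within 2-fold or not above background, were chosen after their values were seen. A few genes that this rule would name were left out of the text. Because the files hold no mean signal, normexp was run on the median signal. The arrays limit the precision by their number.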

Additional observations from a re-analysis of the deposited data

Results flagged for a closer look

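Among the listed and leading genes, 2 were at least 2-fold apart between brain and spleen in both nonTreg and Treg but in opposite directions, a difference that was not tested since each group has 1 array. Foxp3 was at least 5.88 (log2) higher in brain nonTreg than in spleen nonTreg and differed by -1.02 between brain and spleen Treg, as its 4 signals above show. Parva, which encodes the focal adhesion protein parvin alpha, was at 135 in spleen nonTreg and 4.58, not well above background, in brain nonTreg, a bound of -3.74. Between the Treg libraries it was at 85.9 in brain and 8.28, not well above background, in spleen, at least 2.98 higher in brain.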

How the results depend on the processing

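The counts of 2389 higher and 1618 lower genes were 1220 and 889 with normexp background correction, of which 1214 and 887 were among the original genes. Among genes measured on both arrays 1447 were higher and 1334 lower, which put 52.0% of the 2-fold genes on the higher side, with a median of -0.068. Without a filter on dim probes 3308 were higher and 2589 lower, and with spike-in scaling 3144 were higher and 1001 lower. Quantile normalization, the median or another probe set as scaling point, other rules for the probe of a gene and the deposited table kept both counts within 1.5 times. Of the 49 list medians, those of the red pulp macrophage (-0.91), mast cell (-0.065) and choroid plexus (-1.66) lists turned negative among genes measured on both arrays, and the mast cell (-0.065), erythroid (-0.049) and platelet (-0.097) lists did without a filter. With normexp 9 medians came under 2-fold. The median over a gene's probes turned Bcl2l11 to 1.20, Cd80 to 2.30 and Siglech to 1.94, as their probes disagree. For the other changes the cause was not tested.

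No paired analysis was possible because each group has 1 array and the result comes from no test. Leaving out a replicate was not possible either. Signals near the background limit give bounds only, which hold for 1494 higher and 407 lower genes, and every count rests on 1 library per group.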
